A study of Bos taurus with 10 samples.

Results

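The 10 genes described here are known from the primitive endoderm of the early mammalian embryo and from the basement membrane it lays down: the transcription factors GATA6 and SOX17, the receptor PDGFRA, the adaptor DAB2, and the matrix genes FN1, FBLN2, COL4A1, COL4A2, LAMB1 and LAMC1. They were chosen by symbol, with earlier results of these data known, so the shares of all genes printed beside their counts are descriptive. All 10 were present among the 28700 genes of the expression table, and all 10 were among the 11761 genes tested (an average of 1 FPKM or more over the libraries, FPKM being fragments scaled by gene length and by library size).

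The libraries were made from poly(A)-selected RNA of whole bovine embryos that had received small interfering RNA as zygotes. The knockdown embryos (KD) were given siRNA targeting H1FOO, a linker histone specific to oocytes, and the control embryos (NC) negative control siRNA, so every group had been injected. The 8/16-cell stage, at 4 days post insemination, had 2 libraries of each treatment, and the morula stage, at 5.5 days, had 3 of each. The number of embryos in a library and whether replicates came from separate collections are not given, so the p-values speak for the spread among these libraries alone, which may be technical. In whole embryos, fewer cells of a type and less RNA per cell cannot be told apart.

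In the blastocyst, the inner cell mass parts into the epiblast, which builds the embryo proper, and the primitive endoderm (the hypoblast in cattle), which lines it and contributes to the yolk sac. GATA6 and SOX17 direct that lineage, PDGFRA marks its surface and carries platelet-derived growth factor signals, and DAB2 is an endocytic adaptor of its cells. The lineage is a rich source of basement membrane, the sheet in which laminin trimers and a collagen IV network are joined by linking proteins such as nidogens, with fibronectin and fibulins bound to it. The embryos of these libraries precede the blastocyst, when GATA6 is known to be made widely.

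H1FOO itself was at 50.8 and 10.8 FPKM in NC 8/16-cell embryos against 0.649 and 0.0736 FPKM in KD. At the morula stage it was at 0.294, 1.05 and 2.17 FPKM in NC against 0.0610, 0.191 and 0.251 in KD, so KD was below NC at both stages without overlap. Read depth is unknown. Relative depths read from the lowest values lie between 0.71 and 1.44, and 11103 to 11872 genes reached 1 FPKM per library. In KD 8/16-cell replicate 1 the highest value was 136037 FPKM. Its values summed to 669836 FPKM, against 345464 to 456442 in the other libraries. The 18S ribosomal RNA entry RN18S1 was at 2704, 2983 and 8611 FPKM in NC morulae against 9053, 8553 and 11581 in KD morulae, and its part in the results was not tested beyond a fit that carries it as a covariate.

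The label of the list held only in part at these stages. Of all 28700 genes, 11103 to 11872 reached 1 FPKM in a single library. Of 23 further genes of the lineage, 11 averaged 1 FPKM or more in NC morulae and 12 in KD morulae, after 13 in NC and 11 in KD 8/16-cell libraries. SPARC stood highest of these genes, at 166.3 to 439.7 FPKM over the libraries. OTX2 reached 71.9 FPKM, GATA4 5.52 FPKM and FOXA2 4.93 FPKM in their highest library. SOX7 did not pass 0.506 FPKM and HNF4A did not pass 0.170 FPKM in any library, and TTR and CER1 were listed at 0 in all 6 morula libraries. DAB2 is also a trophectoderm marker. The genes are therefore taken as a list and not as a measure of a formed lineage.

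GATA6 was the highest of the 10 genes at the 8/16-cell stage and PDGFRA came next, with the matrix genes lower but above 0 in every library. On the FPKM scale, which is per length, GATA6 averaged 154.9 ± 23.87 in NC 8/16-cell libraries (SD, n = 2) and exceeded 96.5% of the genes tested. PDGFRA averaged 17.19 ± 1.443 FPKM. The other 8 genes had means between 1.402 FPKM (SOX17) and 5.978 FPKM (LAMB1) in these libraries, and neighbours in that order overlapped except FBLN2 with COL4A1 and LAMC1 with LAMB1. At the morula stage FN1 came next to GATA6 in NC, at 128.6 ± 81.23 against 231.8 ± 56.11 FPKM (n = 3), and their libraries overlapped.

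**Figure D1:**
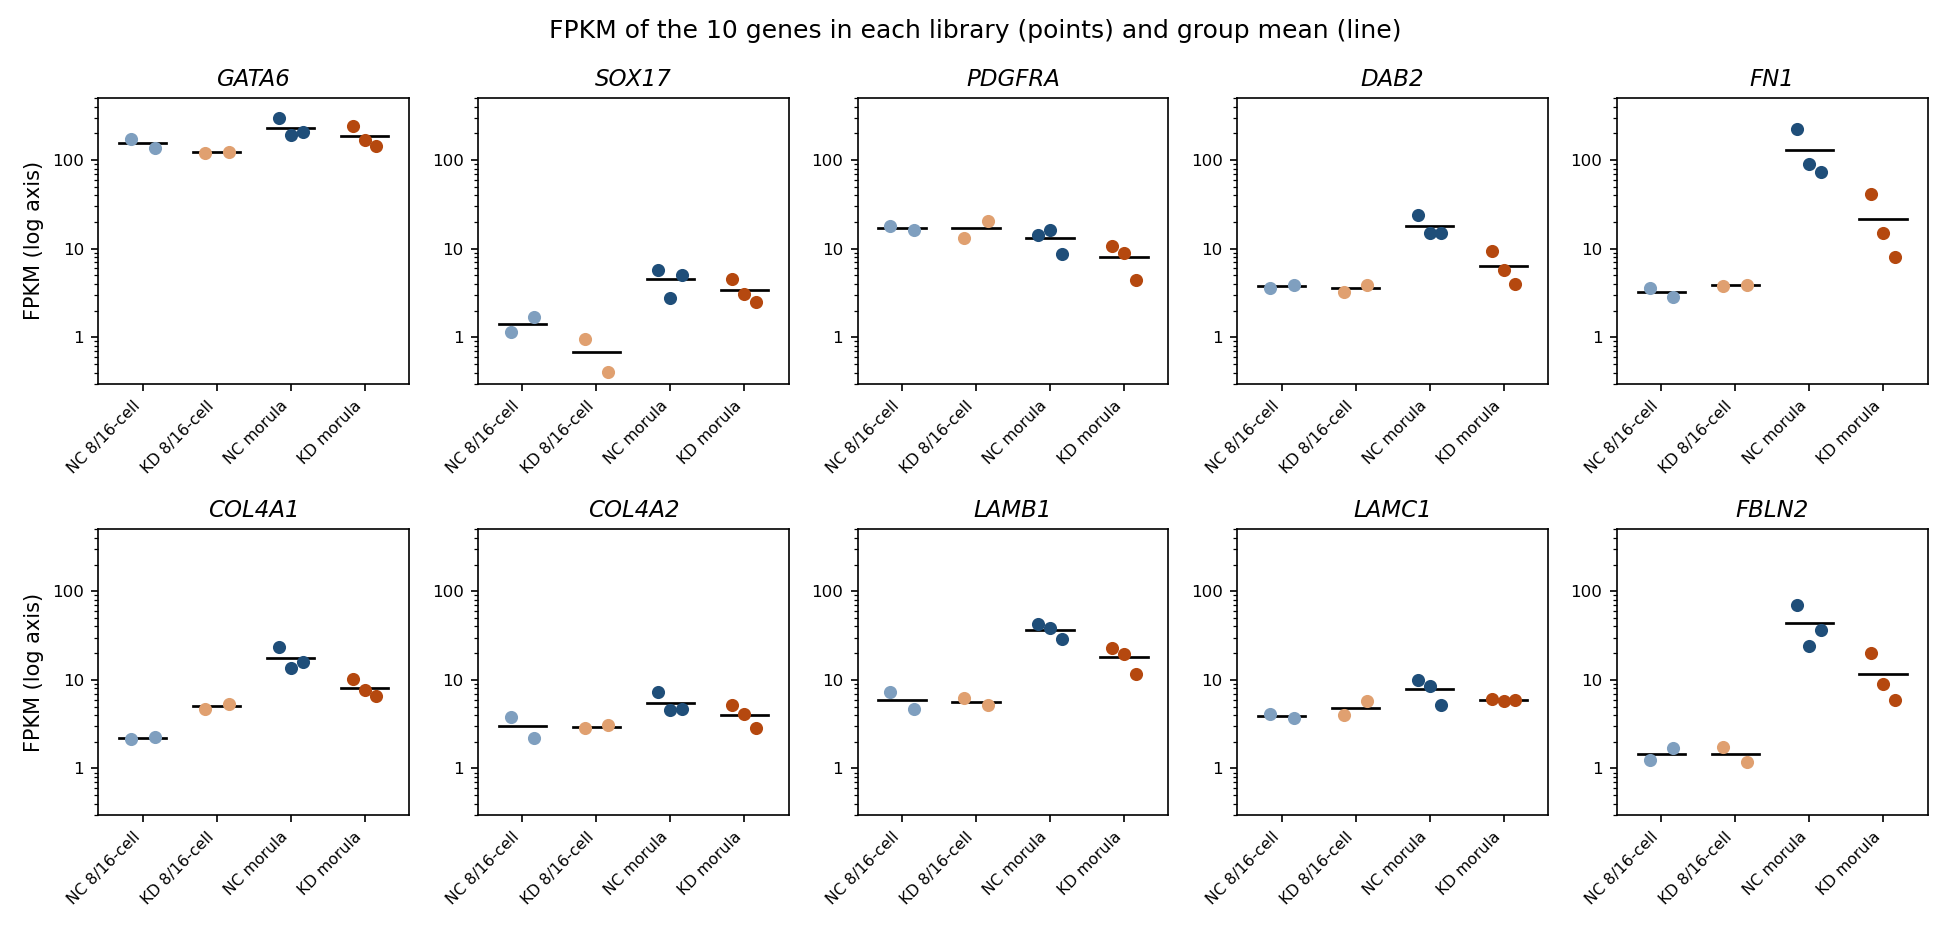
FPKM (log axis) of each of the 10 genes in every library, with 1 point per library and a line at the group mean, for NC and KD 8/16-cell embryos (n = 2 each) and NC and KD morulae (n = 3 each). FN1 climbed from 3.236 to 128.6 FPKM on average in NC and from 3.864 to 21.47 FPKM in KD, while GATA6 was at 120.5 FPKM or more in every library.

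Between the 8/16-cell stage and the morula, most of the matrix genes and DAB2 rose in NC embryos, and FN1 and FBLN2 rose by far the most. By the limma test, 7 of the 10 genes rose (adjusted p under 0.05): SOX17, DAB2, FN1, COL4A1, LAMB1, LAMC1 and FBLN2. Among all genes tested, 30.8% passed in this comparison and 12.6% passed as higher in morulae. For 9 of the 10 genes, PDGFRA being the exception, every NC morula library was above both NC 8/16-cell libraries, which held for 24.3% of all genes. The median log2 difference was 1.56 over the 10 genes and -0.07 over all genes tested.

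FN1, which encodes the adhesive glycoprotein fibronectin, was at 3.63 and 2.84 FPKM in the NC 8/16-cell libraries and at 222, 89.9 and 74.0 FPKM in the NC morulae. The groups were far apart, and the first morula library was more than the other two together. The ratio of means was 39.7, the log2 difference was 4.77 (SE 0.58, limma adjusted p = 0.000531), and FN1 had the rise ranked 10 of the 11761 genes. FBLN2, which encodes fibulin-2, a glycoprotein that binds fibronectin and laminins, was at 1.25 and 1.70 FPKM at the 8/16-cell stage and at 69.5, 24.2 and 37.0 FPKM in NC morulae. Its groups did not overlap either, and its rise ranked 18, with a log2 difference of 4.05 (SE 0.48, limma adjusted p = 0.000484).

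Within each pair of network-forming chains, 1 chain had the larger rise in NC. COL4A1 (collagen IV alpha 1) rose from 2.17 and 2.24 to 23.2, 13.4 and 15.9 FPKM, a log2 difference of 2.50 (SE 0.25, limma adjusted p = 0.000265). COL4A2, the chain that assembles with it, went from 3.82 and 2.21 to 7.31, 4.61 and 4.70 FPKM, which missed the threshold (log2 difference 0.71, SE 0.28, limma adjusted p = 0.079). Both chains were higher in all NC morulae than in the NC 8/16-cell libraries. LAMB1 (laminin beta 1) rose from 7.27 and 4.68 to 42.6, 38.2 and 28.8 FPKM, a log2 difference of 2.43 (SE 0.29, limma adjusted p = 0.000492). LAMC1 (laminin gamma 1) rose from 4.17 and 3.68 to 9.997, 8.52 and 5.20 FPKM, a log2 difference of 0.82 (SE 0.25, limma adjusted p = 0.0334), the smallest rise of the 7 that passed. LAMC1 passed in 12 of 19 alternative settings, SOX17 in 15 of 18, and the other 5 in all 19.

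Of the regulators, DAB2 and SOX17 rose and GATA6 and PDGFRA did not pass. DAB2 rose from 3.62 and 3.91 to 24.0, 14.8 and 15.1 FPKM in NC, a log2 difference of 1.96 (SE 0.30, limma adjusted p = 0.00162). SOX17 rose from 1.13 and 1.67 to 5.76, 2.79 and 5.06 FPKM, a log2 difference of 1.17 (SE 0.31, limma adjusted p = 0.0178). GATA6 was at 171.8 and 138.0 FPKM before and at 296.0, 192.2 and 207.3 FPKM after, which did not pass (log2 difference 0.56, SE 0.26, limma adjusted p = 0.12). PDGFRA was the only one of the 10 with a lower mean in NC morulae, at 18.2 and 16.2 FPKM before and 14.3, 16.2 and 8.68 FPKM after. Its groups overlapped and the difference did not pass (log2 difference -0.41, SE 0.35, limma adjusted p = 0.399).

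**Figure D2:**
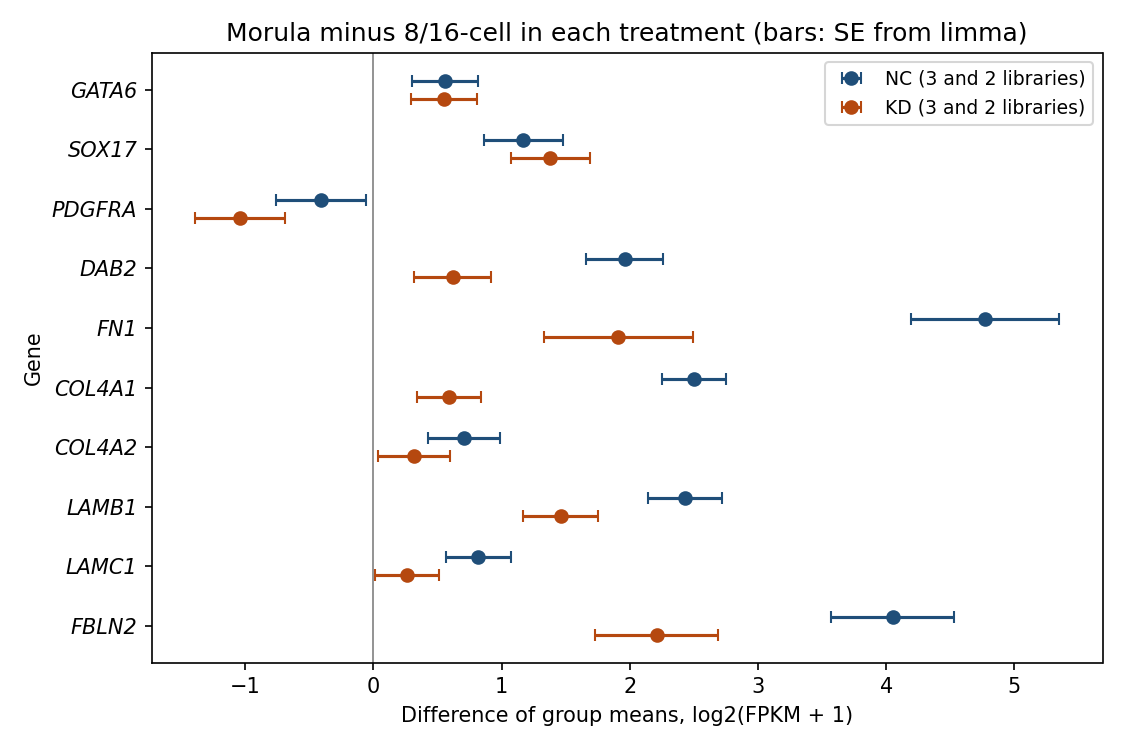
Log2 difference of morula against 8/16-cell embryos for each of the 10 genes, in NC and in KD, on the log2(FPKM + 1) scale, with bars for the standard error from limma. FN1 stands at 4.77 in NC and 1.91 in KD, FBLN2 at 4.05 and 2.21, while the GATA6 points lie together at 0.56 and 0.55.

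In KD embryos 4 of the 10 genes rose over the same interval by limma: SOX17, FN1, LAMB1 and FBLN2. Over all genes tested, 20.0% passed and 5.22% passed as higher. FN1 was at 3.80 and 3.93 FPKM in the KD 8/16-cell libraries and at 41.5, 14.9 and 8.00 FPKM in KD morulae, a log2 difference of 1.91 (SE 0.58, limma adjusted p = 0.0421). FBLN2 went from 1.77 and 1.18 to 20.3, 8.99 and 5.94 FPKM (log2 difference 2.21, limma adjusted p = 0.0119). In both cases every KD morula library was above the KD 8/16-cell libraries, and below every NC morula library.

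LAMB1 in KD went from 6.22 and 5.15 to 22.8, 19.4 and 11.7 FPKM (log2 difference 1.46, limma adjusted p = 0.0084), and SOX17 from 0.947 and 0.410 to 4.60, 3.07 and 2.50 FPKM (1.38, limma adjusted p = 0.0148). COL4A1 had a log2 difference of 0.59 in KD (limma adjusted p = 0.119) and DAB2 one of 0.62 (limma adjusted p = 0.167), where both had passed in NC. PDGFRA was lower in every KD morula library than in both KD 8/16-cell libraries, with a log2 difference of -1.04 (limma adjusted p = 0.059). Under quantile normalization or median-ratio scaling COL4A1 and GATA6 also passed in KD, and COL4A2 in NC. The count of 4 became 0 without KD 8/16-cell replicate 2, 2 without KD 8/16-cell replicate 1 and 2 without KD morula replicate 1, the fits with 1 KD 8/16-cell library taking its spread from the rest. Stage comparisons have a further limit: for all 81 symbols that fill several lines, the 8/16-cell columns repeat 1 set of values, while the morula columns do so for 6, so the columns of the stages may not have been made alike.

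At the 8/16-cell stage KD and NC embryos showed little difference in these genes. None of the 10 genes passed by limma, and 1 of them, COL4A1, had an unadjusted p under 0.05. Over all genes tested, 0.0170% passed and 4.37% had an unadjusted p under 0.05. The median log2 difference was -0.02 over the 10 genes and 0.01 over all genes. KD libraries lay wholly above NC for COL4A1 and FN1 and wholly below for GATA6 and SOX17, which is 4 of 10 genes without overlap beside 33.2% of all genes.

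COL4A1 was the gene with the largest difference of the 10 at this stage. It stood at 2.17 and 2.24 FPKM in NC against 4.67 and 5.40 in KD, so that the KD mean was 2.29 times the NC mean. The log2 difference was 0.91 (SE 0.28) and did not pass after adjustment over all genes (limma adjusted p = 1.0). With sums made equal after leaving out genes above 10000 FPKM, the difference was 0.81. COL4A2 did not show this, with 3.82 and 2.21 FPKM in NC against 2.83 and 3.06 in KD. SOX17, low at this stage, was at 1.13 and 1.67 FPKM in NC against 0.947 and 0.410 in KD. Its KD mean was 0.484 times the NC mean. The SOX17 log2 difference was -0.53 (SE 0.34), or -1.02 with a pseudocount of 0.1, and did not pass. GATA6 was at 171.8 and 138.0 FPKM in NC against 120.5 and 123.6 in KD, with a log2 difference of -0.33 (limma adjusted p = 1.0).

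At the morula stage all 10 genes had lower means in KD than in NC, and the matrix genes FN1 and FBLN2 with DAB2, LAMB1 and COL4A1 were lower in every KD library than in any NC library. With the 4 group means alone, 0 of the 10 genes passed by limma, where 0.697% of all genes did (0.553% as lower), and 5 had an unadjusted p under 0.05, as did 21.2% of all genes. The log2 difference was below 0 for 10 of 10 genes and for 57.9% of all genes. KD lay wholly below NC for 5 of 10 genes and for 15.3% of all genes, with 23.8% not overlapping in either direction. The median log2 difference was -0.84 over the 10 genes, against -0.08 over all genes tested. This contrast shares the NC morulae and KD morulae with the stage comparisons above, so they are not separate evidence. The 10 genes were also listed with earlier results of these data known, so setting them beside all genes is a description.

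The morula libraries with the same number deviated together from their group means (r between 0.312 and 0.37), so this comparison was also fitted with a block for that number. With that replicate block 6 of the 10 genes fell by limma: FN1, FBLN2, DAB2, LAMB1, COL4A1 and PDGFRA. Over all genes tested, 11.9% passed with the block and 8.00% passed as lower. The blocked count was 0 without the libraries numbered 1, 5 without those numbered 2 and 1 without those numbered 3, and the unblocked count was 5 without KD morula replicate 1.

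**Figure D3:**
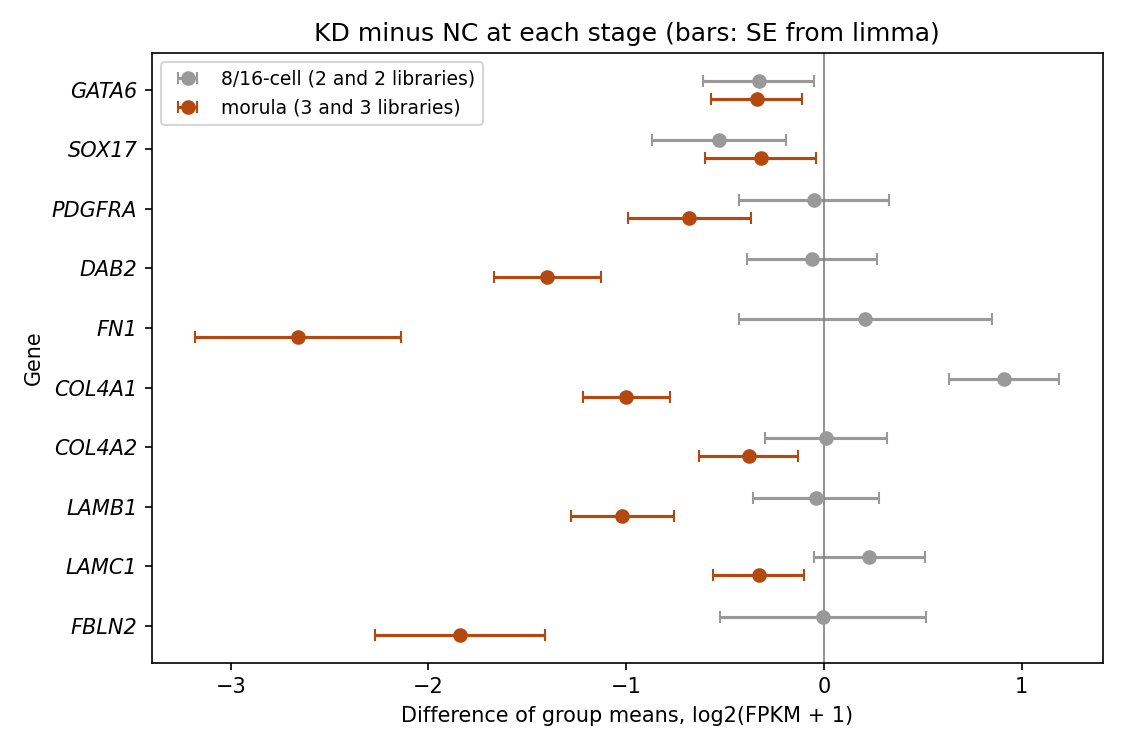
Log2 difference of KD against NC for each of the 10 genes at the 8/16-cell stage and at the morula stage, on the log2(FPKM + 1) scale, with bars for the standard error from limma. At the morula stage all 10 points lie below 0, from -0.32 for SOX17 to -2.66 for FN1, and at the 8/16-cell stage COL4A1 stands highest at 0.91.

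FN1 had the largest difference of the 10. Its levels were 222, 89.9 and 74.0 FPKM in NC morulae against 41.5, 14.9 and 8.00 in KD morulae, with no overlap and with the first library highest in both groups. The NC mean was 5.99 times the KD mean. The log2 difference was -2.66 (SE 0.52, limma adjusted p = 0.0513), ranked 13 among the falls of all 11761 genes. Within the same-numbered libraries the log2 differences were -2.39, -2.52 and -3.06, and with the replicate block the SE was 0.17 (limma adjusted p = 0.00081). Over 23 alternative settings the difference lay between -3.27 and -1.97 and the adjusted p between 0.00081 and 0.366.

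FBLN2 was at 69.5, 24.2 and 37.0 FPKM in NC morulae against 20.3, 8.99 and 5.94 in KD morulae. All KD libraries were below the lowest NC library, though by little in the first. The log2 difference was -1.84 (SE 0.43, limma adjusted p = 0.0648), and -1.73, -1.34 and -2.45 within the same-numbered libraries. Its limma adjusted p with the replicate block was 0.00411, within a range of 0.00411 to 0.387 over the alternatives.

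Of the collagen IV and laminin chains, COL4A1 and LAMB1 were lower in every KD morula library than in any NC one. COL4A1 was at 23.2, 13.4 and 15.9 FPKM in NC against 10.3, 7.60 and 6.64 in KD (NC mean 2.14 times the KD mean, with log2 differences of -1.09, -0.75 and -1.15 in the same-numbered libraries, limma adjusted p = 0.0624). LAMB1 was at 42.6, 38.2 and 28.8 FPKM in NC against 22.8, 19.4 and 11.7 in KD (log2 difference -1.02, SE 0.26, limma adjusted p = 0.0726). With the replicate block the adjusted p was 0.00832 for COL4A1 (0.00832 to 0.388 over the alternatives) and 0.00657 for LAMB1 (0.00657 to 0.513). Their partner chains differed less. COL4A2 was at 7.31, 4.61 and 4.70 FPKM in NC against 5.21, 4.07 and 2.84 in KD (log2 difference -0.38, SE 0.25, limma adjusted p = 0.409). LAMC1 was at 9.997, 8.52 and 5.20 FPKM in NC against 6.02, 5.84 and 5.88 in KD (log2 difference -0.33, SE 0.23, limma adjusted p = 0.433). Both overlapped between treatments, and in the third pair of libraries LAMC1 was higher in KD, by 0.15 on the log2 scale. RN18S1 nearly separated the treatments in morulae (2704, 2983 and 8611 FPKM in NC against 9053, 8553 and 11581 in KD). A fit that carries it therefore cannot tell RN18S1 and treatment apart, and the SE of FN1 was 0.65 in it against 0.52. With RN18S1 as a covariate and no block, added after seeing the data, 0 of the 10 genes passed by limma, as in the unblocked fit without it. Several differences shrank. LAMB1 was then at -0.55, PDGFRA at -0.17, GATA6 at -0.08, COL4A2 at -0.01 and LAMC1 at 0.06, a change of sign. FN1 was at -1.97, FBLN2 at -1.72, DAB2 at -1.19, COL4A1 at -0.88 and SOX17 at -0.49.

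Of the regulators, DAB2 differed most. It was at 24.0, 14.8 and 15.1 FPKM in NC morulae against 9.29, 5.69 and 4.02 in KD morulae, with no overlap. The log2 difference was -1.40 (SE 0.27, limma adjusted p = 0.0503) and -1.28, -1.24 and -1.68 within the same-numbered libraries. With the replicate block the adjusted p was 0.00368 (0.00368 to 0.343 over the alternatives). The receptor PDGFRA was at 14.3, 16.2 and 8.68 FPKM in NC against 10.6, 8.92 and 4.37 in KD, and the groups overlapped (log2 difference -0.68, SE 0.31, limma adjusted p = 0.244). It fell only with the replicate block (limma adjusted p = 0.0496, with 0.0496 to 0.87 over the alternatives).

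The lineage transcription factors did not pass in either fit. GATA6 was at 296.0, 192.2 and 207.3 FPKM in NC against 240.7, 169.5 and 142.1 in KD (log2 difference -0.34, SE 0.23, limma adjusted p = 0.419). SOX17 was at 5.76, 2.79 and 5.06 FPKM in NC against 4.60, 3.07 and 2.50 in KD (log2 difference -0.32, SE 0.28, limma adjusted p = 0.535). Both overlapped widely, and SOX17 was higher in KD than in NC in the second pair, by 0.10 on the log2 scale. A smaller difference than these standard errors resolve was not detectable.

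The change in the treatment effect between stages was tested as an interaction (the KD against NC difference in morulae minus that at the 8/16-cell stage). None of the 10 genes passed by limma and 5 had an unadjusted p under 0.05, against 0.0170% and 9.39% of all genes. FN1 had the largest value, -2.86 (SE 0.82, limma adjusted p = 0.466), followed by COL4A1 at -1.91 (SE 0.36, limma adjusted p = 0.253), FBLN2 at -1.83, DAB2 at -1.34 and LAMB1 at -0.98. With the replicate block FN1 (limma adjusted p = 0.011) and COL4A1 (0.0499) passed, 2 of 10 genes against 0.272% of all genes. That fit also pairs the 8/16-cell libraries by number, which the data did not bear out (r = 0.0558). Over the alternatives the adjusted p lay between 0.011 and 0.925 for FN1 and between 0.0499 and 0.925 for COL4A1. FN1 and COL4A1 were also the members with every KD library above NC at the 8/16-cell stage and every KD library below NC at the morula stage, a pattern shared by 2.53% of all genes. For GATA6 the interaction was -0.01 and for SOX17 0.21.

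Because FPKM is per length, the levels of partner chains can be set against each other within a library. The COL4A1 to COL4A2 ratio was 0.568 and 1.01 in NC 8/16-cell libraries, 1.65 and 1.76 in KD 8/16-cell libraries, 3.18, 2.92 and 3.39 in NC morulae and 1.99, 1.87 and 2.34 in KD morulae. The ratio in KD was thus above NC at the earlier stage and below it at the later one, without overlap at either. In morulae it was 3.16 ± 0.236 in NC against 2.07 ± 0.244 in KD (SD, n = 3, 2-sided exact permutation test p = 0.1, the smallest that 3 against 3 allows, 0.267 after Benjamini-Hochberg adjustment over 8 such tests). In 8/16-cell embryos, 2 against 2 libraries could give no exact permutation p below 0.333, and gave that (0.444 adjusted). In mammals these 2 genes are known to lie head to head, and they are next to each other in the ARS-UCD2.0 annotation, which was used for names and neighbours.

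The LAMB1 to LAMC1 ratio was 1.75 and 1.27 in NC 8/16-cell libraries against 1.57 and 0.901 in KD, which overlapped. In morulae it was 4.26, 4.48 and 5.53 in NC against 3.79, 3.32 and 1.99 in KD, so KD was lower without overlap (4.76 ± 0.679 against 3.03 ± 0.936, n = 3, 2-sided exact permutation test p = 0.1, 0.267 adjusted). FN1 over COL4A1 was 6.97 ± 2.47 in NC and 2.39 ± 1.46 in KD morulae, also without overlap and with the same exact permutation p of 0.1. At the 8/16-cell stage that ratio was 1.68 and 1.27 in NC against 0.814 and 0.727 in KD, also lower without overlap (exact permutation p = 0.333, 0.444 adjusted). The chains behind it differed by stage. In 8/16-cell embryos both FN1 and COL4A1 had higher means in KD, COL4A1 by more. In morulae both had lower means in KD, FN1 by more. FN1 over FBLN2 was 2.97 ± 0.876 and 1.68 ± 0.351, and its libraries overlapped (exact permutation p = 0.2, 0.4 adjusted).

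**Figure D4:**
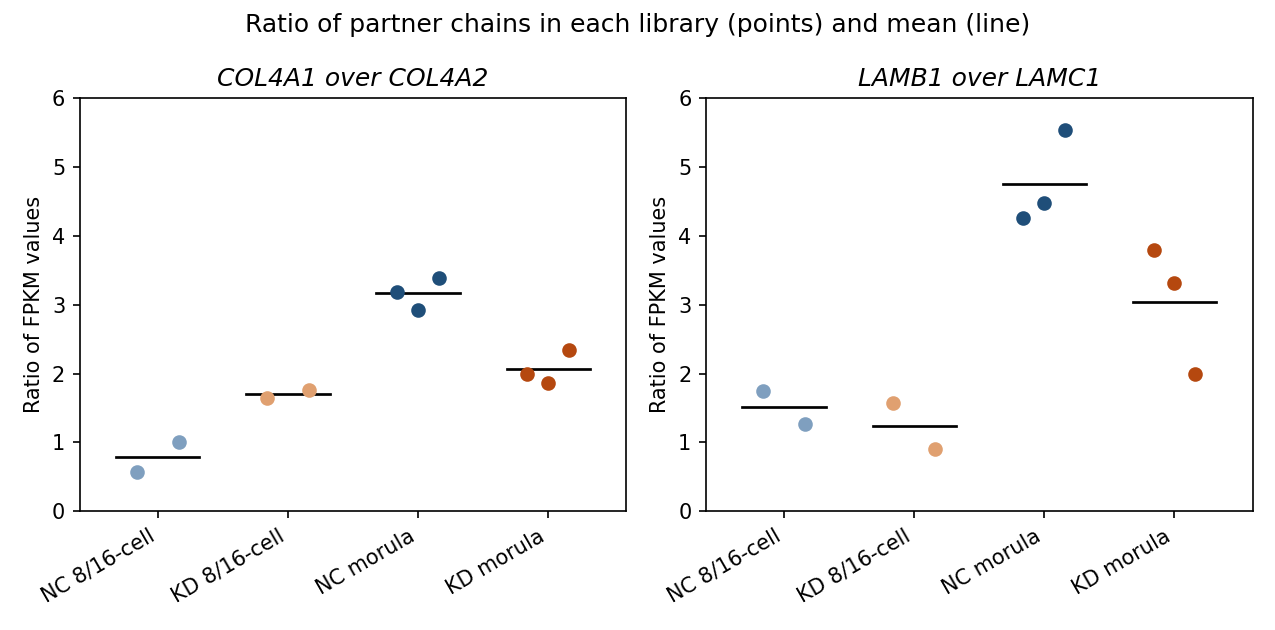
Ratio of FPKM values of COL4A1 to COL4A2 and of LAMB1 to LAMC1 in each library (points), with a line at the group mean, by stage and treatment. The collagen ratio is above NC in KD 8/16-cell libraries (1.65 and 1.76 against 0.568 and 1.01) and below NC in KD morulae (2.07 against 3.16 on average).

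The libraries of a group did not hold these genes at 1 level. NC morula replicate 1 was the highest NC morula library for 9 of the 10 genes, PDGFRA being the exception. KD morula replicate 1 was the highest KD morula library for 10 of 10, and KD morula replicate 3 the lowest for 9 of 10, with LAMC1 the exception. Those libraries also held the highest and lowest relative depth of the series (1.44 and 0.71). KD morula replicate 3 had the highest RN18S1 value, 11581 FPKM. The part of depth and RN18S1 in this order was not tested. The summed FPKM of the 10 genes ran from 401.7 to 714.6 in NC morulae and from 194.0 to 371.4 in KD morulae, so the sums did not overlap. At the 8/16-cell stage the sums were 177.1 to 217.1 in NC and 161.1 to 173.1 in KD, mostly GATA6.

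DAB2, FN1, COL4A1, LAMB1 and FBLN2 followed one another closely. Their 10 pairwise Pearson correlations of log2(FPKM + 1) lay between 0.91 and 0.99 over the 10 libraries and between 0.91 and 1.0 over the 6 morula libraries. PDGFRA stood apart over all libraries, with correlations of -0.46 to 0.02 with the other 9 genes, and of 0.4 to 0.93 within morulae. These are descriptions, since the points share the stage, the treatment and the library.

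Among 3613 genes with an SD of at least 0.5, the ones most like each member other than LAMB1 over the 10 libraries were as follows. FN1 was most like CCDC50 (r = 0.992) and SYNE3 (0.991), and DAB2 was most like LITAF (0.993) and GDPD2 (0.990). FBLN2 was most like SLC44A2 (0.993) and CAPN2 (0.992), and COL4A1 most like LCAT (0.978) and TMEM254 (0.976). The best match of the others was LPCAT4 (0.984) for GATA6, SLC2A5 (0.966) for SOX17, MAN2B1 (0.961) for COL4A2, S1PR1 (0.954) for LAMC1 and PLEKHA1 (0.942) for PDGFRA.

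Other genes of the primitive endoderm did not move as one with the 10. Of the 23 further genes of the lineage, 14 were tested in KD against NC morulae. None passed by limma, 3 in each direction had an unadjusted p under 0.05, 8 lay above 0 and 6 below, and the median log2 difference was 0.17. With the replicate block 4 were lower (LRP2, AMN, RSPO3 and OTX2) and 2 were higher (GATA4 and APOA1). Over all genes tested in morulae, 42.0% lay above 0 and 21.2% had an unadjusted p under 0.05. With the block, 8.00% of all genes were lower and 3.89% higher, shares that also stand beside the morula counts of the lists below. RSPO3, an enhancer of Wnt signalling, had mean levels of 12.7 ± 4.798 FPKM in NC against 3.433 ± 2.107 in KD morulae (log2 difference -1.71, limma adjusted p = 0.098, 0.0038 with the block). OTX2, a homeodomain factor, was at 51.44 ± 17.78 and 19.63 ± 15.53 FPKM (-1.67, limma adjusted p = 0.148). GATA4, the close relative of GATA6, went the other way, at 0.8904 ± 0.3226 FPKM in NC against 2.468 ± 0.1588 in KD (0.89, limma adjusted p = 0.076).

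The remaining basement membrane components were mostly low. Of 35 listed, 12 were tested, 7 above 0 and 5 below in KD against NC morulae with a median log2 difference of 0.11, and none passed by limma (2 higher and 1 lower at an unadjusted p under 0.05). NID2 fell with the replicate block, and TINAGL1 and SMOC1 rose. NID2 encodes nidogen-2, a linker of laminin and collagen IV, and was at 22.2, 9.85 and 8.67 FPKM in NC against 6.94, 4.61 and 2.46 in KD morulae (log2 difference -1.33, SE 0.38, limma adjusted p = 0.0951, 0.00649 with the block). Like the 5 genes above, it was lower in KD without overlap. TINAGL1, a tubulointerstitial nephritis antigen-like matrix protein, was at 7.909 ± 5.71 FPKM in NC against 20.69 ± 7.681 in KD (1.47, limma adjusted p = 0.126). A laminin trimer of LAMB1 and LAMC1 also needs an alpha chain. LAMA1 and LAMA5, which can each supply one, stayed at or below 3.19 and 2.44 FPKM in every library.

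The receptors and enzymes of the matrix gave further values. Of 26 matrix receptors 18 were tested, 11 above 0 and 7 below in KD against NC morulae (median 0.10), none passed by limma (2 higher and 2 lower at an unadjusted p under 0.05), and ITGA5 and SDC4 fell with the replicate block. ITGA5, the alpha chain of the fibronectin receptor, was at 84.8, 30.3 and 37.2 FPKM in NC against 42.0, 20.6 and 16.8 in KD morulae. The groups overlapped (log2 difference -0.88, limma adjusted p = 0.223, 0.0121 with the block). SDC4, a syndecan that works with integrins on fibronectin, was at 25.49 ± 8.098 and 13.67 ± 2.951 FPKM (-0.83, limma adjusted p = 0.091).

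Collagen folding and export genes had no shift in morulae, with 7 of 18 tested above 0, 11 below and a median of -0.10. Earlier, in 8/16-cell embryos, 16 of these 18 lay above 0, beside 52.1% of all genes (median 0.28 against 0.01 over all genes). PLOD2 rose and LOXL2 fell in morulae with the replicate block. None passed by limma without it at either stage. An unadjusted p under 0.05 was found for 3 in morulae and 5 at the 8/16-cell stage, beside 21.2% and 4.37% of all genes. PLOD2, a lysyl hydroxylase of collagens, averaged 8.54 FPKM in NC against 28.64 in KD 8/16-cell libraries (log2 difference 1.64, limma adjusted p = 1.0).

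Of the ligands, receptors and feedback genes of PDGF and FGF signalling, 18 of 23 were tested in morulae, 7 above 0 and 11 below (median -0.17), and none passed by limma (2 higher and 5 lower at an unadjusted p under 0.05). FGFR3, FGFR4 and SPRED2 fell with the replicate block, and PDGFC and SPRY4 rose. PDGFC, a ligand of PDGFRA, was at 0.2321 ± 0.2157 FPKM in NC against 2.259 ± 2.049 in KD (log2 difference 1.22, limma adjusted p = 0.122). Its KD libraries ran from 0.527 to 4.52 FPKM. PDGFA, another ligand on the list, was at 4.73, 1.59 and 3.43 FPKM in NC against 1.67, 1.94 and 0.895 in KD, with overlap. The means of PDGFC and PDGFA thus differed in opposite directions, and neither difference passed by limma. FGFR3 was at 21.04 ± 5.445 and 11.18 ± 4.507 FPKM (-0.89, limma adjusted p = 0.102). SPRY4, an antagonist of receptor tyrosine kinase signals, was at 4.647 ± 2.368 and 10.45 ± 2.347 FPKM (1.08, limma adjusted p = 0.0747).

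**Figure D5:**
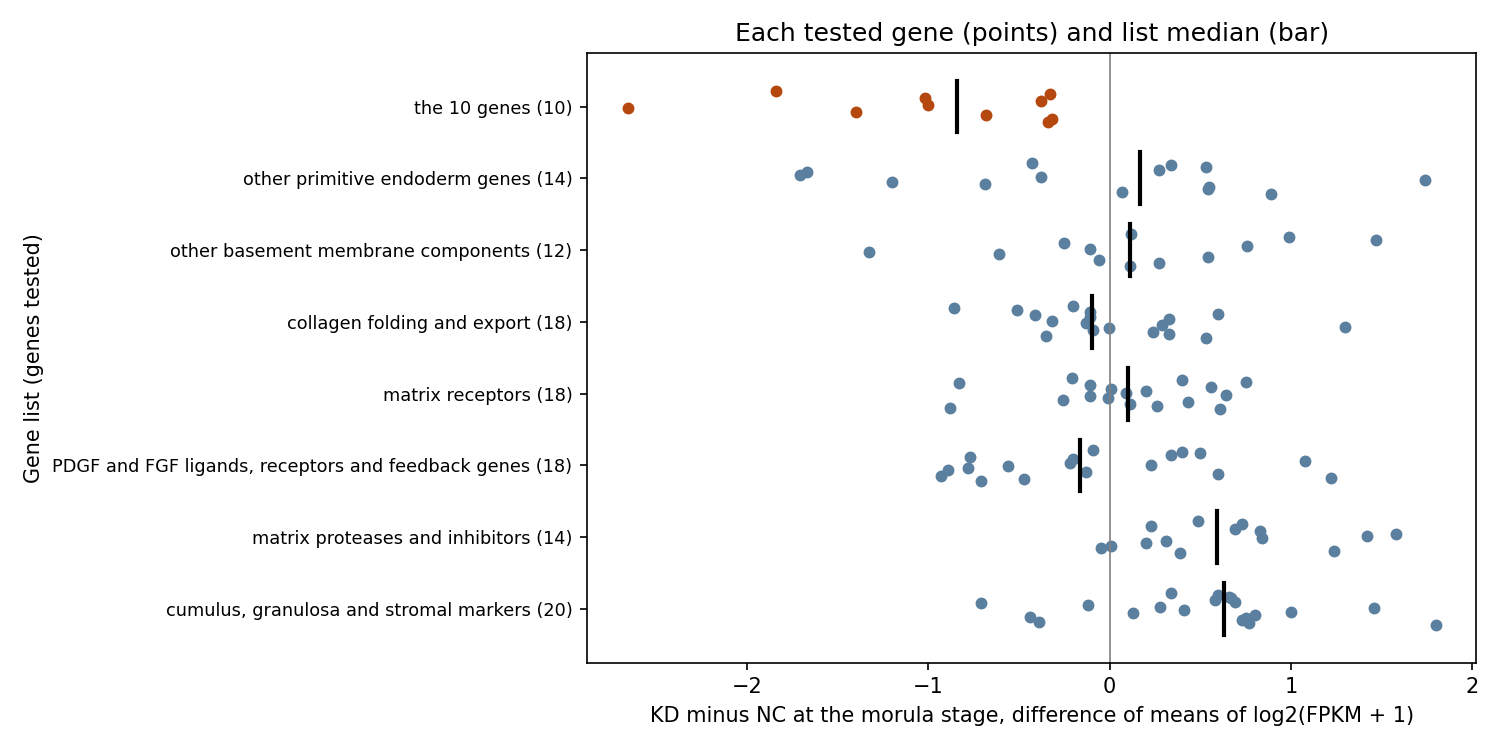
Log2 difference of KD against NC at the morula stage for every tested gene of the 10 members and of the related lists (points), with a line at each list's median, on the log2(FPKM + 1) scale. The 10 members have a median of -0.84, the other primitive endoderm genes 0.17, the other basement membrane components 0.11 and the matrix proteases 0.59.

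Markers of cells that could travel with an embryo were also compared. Of 26 cumulus, granulosa and stromal markers 20 were tested, and in KD against NC morulae 16 lay above 0 and 4 below (median 0.63), with 0 passing by limma and 5 higher and 1 lower at an unadjusted p under 0.05. VIM, COL1A1 and CYP11A1 rose and SERPINE2 fell with the replicate block. Their summed level was 88.5 to 97.6 FPKM in NC morulae and 76.8 to 167.4 FPKM in KD morulae, with FSHR at 0 in all libraries and PTX3 at 0 in NC morulae. At the 8/16-cell stage the sums were 114.9 to 117.0 FPKM in NC and 188.7 to 200.01 FPKM in KD. VIM was at 3.44, 10.97 and 43.3 FPKM in KD morula replicates 1, 2 and 3, where FN1 was at 41.5, 14.9 and 8.00 FPKM, so the libraries ranked in the opposite order. Of the other markers that passed with the block, CYP11A1 ranked as VIM did, at 2.25, 7.90 and 15.4 FPKM. COL1A1 (4.21, 8.86 and 4.55 FPKM) and SERPINE2 (45.9, 23.4 and 35.0 FPKM) did not, so the list had no common order. The part of these cells in the values of the 10 genes was not tested.

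Trophectoderm markers, of which DAB2 is one, included further lower values: 11 of 15 were tested, 4 above 0 and 7 below in KD against NC morulae (median -0.59). None passed by limma (1 higher and 3 lower at an unadjusted p under 0.05), and CDX2, GATA3 and DAB2 fell with the replicate block. CDX2, a trophectoderm transcription factor, was at 9.175 ± 2.827 FPKM in NC against 1.817 ± 0.5593 in KD (log2 difference -1.83, limma adjusted p = 0.0559). Their summed level was 181.2 to 301.8 FPKM in NC and 142.1 to 209.3 FPKM in KD morulae, and none of the 15 was at 0 in all libraries of a group. The part of trophectoderm cells in the DAB2 value was not tested.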

How the data were processed

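Poly(A) RNA of 10 libraries of bovine embryos was analysed, grouped by treatment and stage per the labels. The authors deposited FPKM values, in a table of 39911 lines. The submitters' processing notes name Trimmomatic, HISAT2, featureCounts and Cufflinks and the builds ARS-UCD1.2 and bosTau9; versions, steps and strand are not given in the sources used here. With no counts, depth is unknown and intervals from counting were not computed. Because FPKM values are shares, each change is relative to the library's other transcripts. Strand being unknown, reads of FN1 and LAMB1 cannot be told from those of the small or noncoding genes that overlap them in ARS-UCD2.0.

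Symbols of several loci (81, on 11211 lines) were left out. limma 3.58.1 in R 4.3.3, with a variance trend, fitted 4 group means to log2(FPKM + 1) of the 11761 genes averaging 1 FPKM or more over all libraries. A fold change on this scale understates the change of low genes. Tests were 2-sided, Benjamini-Hochberg adjustment ran over all genes tested, and the threshold was 0.05. The procedure was tested on simulated data. Libraries numbered alike deviated together in morulae (r = 0.37, 0.325 and 0.312) but not at the 8/16-cell stage (r = 0.0558), so a fit blocked on that number is given for morulae. Columns without a sample numbered 0.

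The members and lists were chosen with earlier results of these data known. All members are described. From each list the text draws on up to 4 genes, those with the smallest p in KD against NC morulae, and names genes that pass with the block. LRP2, APOA1, SPARC, PDGFA, FGFR4, POU5F1, LAMA1, LAMA5, FOXA2, SOX7, HNF4A, TTR and CER1 were named after their values were seen. Alternatives were other pseudocounts, filters, scalings, sample sets and variance models, the replicate block and leaving out each library. The RN18S1 covariate and the blocked fits without a pair of libraries were added after seeing the data. The genes most like LAMB1 in pattern are not reported here.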

Additional observations from a re-analysis of the deposited data

Results flagged for a closer look

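For FN1 and COL4A1 the observed KD against NC differences had opposite signs at the 2 stages. Every KD library was above NC at the 8/16-cell stage and every KD library below NC at the morula stage. The interaction was -2.86 for FN1 and -1.91 for COL4A1 on the log2 scale. Neither passed in the limma interaction test without a block (adjusted p = 0.466 and 0.253), and both passed with the replicate block (adjusted p = 0.011 and 0.0499), a fit that also pairs the 8/16-cell libraries, whose same-numbered deviations had an r of 0.0558. Over the alternatives these p-values ran from 0.011 to 0.925 and from 0.0499 to 0.925. Among all genes tested, 2.53% showed that pattern of libraries, so it is not rare. For FN1 the difference at the 8/16-cell stage alone was 0.21 (SE 0.64), well inside its error.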

How the results depend on the processing

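Of 990 values of single genes under alternatives, 907 kept their direction and their side of the threshold, 33 passed newly, 24 no longer passed and 26 changed sign. The count of the 10 genes that passed in KD against NC morulae was 0, and it became 2 with a mean of at least 5 FPKM (DAB2 and FN1), 6 with the replicate block, and 0, 5 and 1 with the replicate block without the libraries numbered 1, 2 and 3. Leaving out 1 library at a time gave 0 to 5. For the interaction the count was 2 with the replicate block. In KD, morula against 8/16-cell, the count of 4 became 7 with the replicate block over both stages, where the numbers do not pair embryos, 0 to 4 without 1 library at a time, and 6 with quantile normalization or median-ratio scaling (COL4A1 and GATA6 added). In NC the count of 7 became 5 to 7 without 1 library, 8 with either of those scalings (COL4A2 added) and 9 with the replicate block over both stages (COL4A2 and GATA6 added). The replicate block changed no other call in KD against NC or the interaction. In KD, morula against 8/16-cell, the block over both stages added DAB2, GATA6 and PDGFRA, of which PDGFRA was a fall. With a mean of at least 5 FPKM the count there stayed at 4, but PDGFRA passed as a fall and SOX17 was not tested.

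Signs changed only for values that had not passed. In morulae LAMC1 became 0.06 with the RN18S1 covariate. In 8/16-cell embryos COL4A2 became -0.0046 with quantile normalization, -0.01 with median-ratio scaling, -0.08 with equal sums and -0.02 with the RN18S1 covariate. Without 1 library at a time, 8/16-cell differences ran from -0.36 to 0.26 for PDGFRA, -0.17 to 0.04 for DAB2, -0.29 to 0.30 for COL4A2, -0.31 to 0.23 for LAMB1 and -0.18 to 0.17 for FBLN2. The interaction became 0.23, 0.12, 0.22 and 0.26 for GATA6 with quantile normalization, median-ratio scaling, equal sums and the RN18S1 covariate, and 0.01 for COL4A2 with the RN18S1 covariate. Without 1 library it ran from -0.22 to 0.18 for GATA6 and from -0.05 to 0.44 for SOX17. The cause was not tested.

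Over all genes, 82 passed in KD against NC morulae (17 higher, 65 lower), and from 0 to 1398 did under the alternatives. Quantile normalization gave 28 higher and 41 lower. In KD, morula against 8/16-cell, it gave 1121 higher and 1027 lower, against 614 and 1741, and moved the median of all genes from -0.18 to -0.01. Equal sums moved the interaction's median from -0.10 to 0.10. With 2 or 3 libraries a group and no counts, the precision of genes near 1 FPKM, such as SOX17 at the 8/16-cell stage, is unknown.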

Other observations

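Most of the genes that cut the matrix, or inhibit its cutting, lay above 0 in KD against NC morulae. Of 24 such proteases and inhibitors 14 were tested, and 13 lay above 0 and 1 below, beside 42.0% of all genes above 0. The median log2 difference was 0.59 against -0.08 over all genes. None passed by limma, 4 had an unadjusted p under 0.05, beside 21.2% of all genes, and with the replicate block MMP2, ADAMTS4, PLAT and PLAUR rose. Among all genes tested, 3.89% rose with the block. ADAMTS4, a secreted metalloprotease, averaged 2.997 ± 1.427 FPKM in NC and 9.392 ± 2.158 FPKM in KD morulae without overlap (log2 difference 1.42, SE 0.32, limma adjusted p = 0.0624). MMP2, which cleaves collagen IV, averaged 2.494 ± 1.387 and 7.602 ± 4.627 FPKM (1.24, limma adjusted p = 0.159). In 8/16-cell embryos 13 of the 14 also lay above 0 (median 0.44), beside 52.1% of all genes. None passed by limma there (1 at an unadjusted p under 0.05, beside 4.37% of all genes). The cumulus, granulosa and stromal markers had medians close to these, 0.63 in morulae (16 of 20 above 0) and 0.45 at the 8/16-cell stage (15 of 20). Their summed level was 88.5 to 97.6 FPKM in NC and 76.8 to 167.4 FPKM in KD morulae. SERPINE2, which was lower in KD, made up a large part of the NC sums. The part of these markers' cells in the protease values was not tested.

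Epiblast markers split in direction. Of 12 listed 10 were tested, 3 above 0 and 7 below in morulae (median -0.22), with none passing by limma and 2 in each direction at an unadjusted p under 0.05. NANOG, an epiblast factor that opposes GATA6 in the inner cell mass, averaged 13.24 ± 6.267 FPKM in NC and 34.09 ± 7.518 FPKM in KD morulae without overlap (log2 difference 1.39, limma adjusted p = 0.0724, 0.00506 with the replicate block). NANOG and KLF17 rose and POU5F1 and LIN28A fell with the replicate block. LIN28A was at 39.44 ± 12.64 and 17.57 ± 8.441 FPKM (-1.20, limma adjusted p = 0.138). FGF4, the ligand through which the epiblast is known to drive primitive endoderm, was listed at 0 in all 8/16-cell libraries and averaged 6.337 ± 0.5009 FPKM in NC and 3.452 ± 2.694 FPKM in KD morulae, with overlap (limma adjusted p = 0.218).

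Of 12 oocyte markers 10 were tested in morulae, 9 above 0 and 1 below (median 0.21), and MOS averaged 0.8918 ± 0.3345 FPKM in NC and 4.671 ± 3.281 FPKM in KD. Of 8 blood markers 3 were tested, all above 0 (median 0.28), and of 8 sperm markers 2, both above 0 (median 0.41). None of these passed by limma, and MOS alone had an unadjusted p under 0.05 and rose with the replicate block.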
